A study of Mus musculus with 20 samples.

Results

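The genes described are the acute phase genes Saa1, Saa2, Saa3 and Saa4 (serum amyloid A), Orm1, Orm2 and Orm3 (orosomucoids, also called alpha-1-acid glycoproteins), Hp (haptoglobin), and the short pentraxins Apcs (serum amyloid P component) and Crp (C-reactive protein). They were taken as all probes whose only gene symbol in the array annotation is 1 of these 10 names, which gave 19 probes among 23493, and 10 genes among the 15252 that the array measures. Apcs has 4 probes, Crp and Saa2 have 3 each, Saa1 and Saa3 have 2 each, and the other members have 1 each. Expression had been profiled in the liver of 20 mice (5 groups of 4) collected 48 h after a hydrodynamic tail vein injection, a rapid injection of a volume equal to 10% of body weight that carries nucleic acid into hepatocytes. The vehicle group received Ringer's solution, and every other group received 40 µg of an siRNA in it: PPARa siRNA or PPARa-M siRNA, which target different parts of the Ppara mRNA, or the control siRNAs SEAP-M (against secreted alkaline phosphatase) and GL3 (against a reporter). All groups, vehicle included, therefore share the injection, and no uninjected mice were analysed here. Strain, sex and age are not given in the sources used here, nor is the meaning of the suffix M.

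The acute phase response is the change in hepatic protein synthesis that follows injury or infection. Interleukin 6 acting through STAT3, and interleukin 1 and tumor necrosis factor acting through NF-kB and C/EBP factors, raise the transcription of these genes in hepatocytes, and the proteins are secreted into plasma. In mice the major induced proteins are serum amyloid A, serum amyloid P component and the orosomucoids, whereas C-reactive protein, which rises steeply in humans, responds weakly. Saa1 and Saa2 are the main hepatic serum amyloids carried on high density lipoprotein, Saa3 is also made by macrophages and adipocytes, and Saa4 is a largely constitutive form. PPARα, the product of Ppara, is a nuclear receptor of fatty acid metabolism that is also known to restrain inflammatory transcription in liver.

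The members lie in gene clusters, and their proximal promoters are shown because both pairs of close copies have C/EBP motif matches at nearly the same place. The Saa genes lie together on chromosome 7, the Orm genes on chromosome 4, and Crp and Apcs on chromosome 1. Each line gives the 250 bases before the transcript start from RefSeq, build GRCm38.p6, written 5′ to 3′ in the direction of the gene, with matches to the C/EBP motif TTNNGCAA or its reverse complement in capitals.
Saa1, chr7:46742981-46743230, minus strand: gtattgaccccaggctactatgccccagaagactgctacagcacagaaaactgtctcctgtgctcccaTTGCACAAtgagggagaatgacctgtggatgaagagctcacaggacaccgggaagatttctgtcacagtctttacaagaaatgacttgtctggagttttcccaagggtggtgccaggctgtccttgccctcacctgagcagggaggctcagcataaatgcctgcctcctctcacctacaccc
Saa2, chr7:46751583-46751832, plus strand: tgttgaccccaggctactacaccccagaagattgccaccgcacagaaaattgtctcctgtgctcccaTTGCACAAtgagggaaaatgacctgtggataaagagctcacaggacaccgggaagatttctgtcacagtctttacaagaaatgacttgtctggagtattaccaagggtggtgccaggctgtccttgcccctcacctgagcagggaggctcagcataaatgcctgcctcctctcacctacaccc
Saa3, chr7:46715677-46715926, minus strand: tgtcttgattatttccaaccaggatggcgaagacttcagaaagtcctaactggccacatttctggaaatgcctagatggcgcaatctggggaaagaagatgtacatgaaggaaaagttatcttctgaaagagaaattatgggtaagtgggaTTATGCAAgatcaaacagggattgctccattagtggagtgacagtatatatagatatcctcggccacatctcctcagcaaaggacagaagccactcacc
Orm2, chr4:63362199-63362448, plus strand: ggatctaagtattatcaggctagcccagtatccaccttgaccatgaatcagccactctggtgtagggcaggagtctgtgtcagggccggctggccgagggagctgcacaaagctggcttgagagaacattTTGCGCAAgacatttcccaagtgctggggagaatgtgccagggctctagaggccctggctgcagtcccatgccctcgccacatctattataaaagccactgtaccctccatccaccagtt
Orm3, chr4:63355908-63356157, plus strand: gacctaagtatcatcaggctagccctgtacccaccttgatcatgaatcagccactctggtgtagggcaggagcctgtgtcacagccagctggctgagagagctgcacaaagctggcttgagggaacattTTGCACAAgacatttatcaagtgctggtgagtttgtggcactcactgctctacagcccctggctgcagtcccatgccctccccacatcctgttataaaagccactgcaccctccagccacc
The Saa1 and Saa2 windows were 94.8% identical when aligned, and the Orm2 and Orm3 windows 85.9%. The C/EBP motif was in 6 of the 8 member windows that the RefSeq table holds (Saa1, Saa2, Saa3, Saa4, Orm2 and Orm3) and in 9.57% of the 32841 windows of all genes. The STAT motif TTCNNNGAA was in 1 member window, that of Apcs, against 7.02% of all windows, and the NF-kB consensus in 0 member windows against 7.25%; both strands were searched, and motifs could overlap. A match is a run of letters only. Close copies also matter for the array, because the reference gene table lists Saa1 and Saa2 as synonyms of each other, and which copy a probe of either reads is uncertain.

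Values are ratios of the mouse to a pool of RNA from 4 vehicle mice, so that 1 means the level of the pool. The labels do not state which channel is the numerator. The direction used here, mouse over pool, is likely rather than stated, and rests on the study's design and on Ppara itself, which read 0.665, 0.483, 0.663 and 0.651 in mice A to D given PPARa-M siRNA and 1.06, 0.747, 0.817 and 0.783 in those given PPARa siRNA. On the log2 scale Ppara fell by 0.89 with PPARa-M siRNA relative to SEAP-M control siRNA (limma adjusted p = 0.0103), and was -0.34 with PPARa siRNA relative to GL3 control siRNA (adjusted p = 1.00). Correlations between arrays ran from -0.256 to 0.638. Ratios carry no absolute level, so the liver identity of the tissue could not be checked from its markers, nor can levels be compared between genes. In whole tissue, more cells of a type and more RNA per cell cannot be told apart.

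A single liver carried the highest value of every member. PPARa siRNA mouse D was the highest of the 20 mice for 10 of 10 members, and for 9.64% of all genes. Orm2, the most responsive orosomucoid, read 3.49, 1.05, 1.00 and 17.0 in PPARa siRNA mice A, B, C and D. The vehicle mice read 1.04, 0.860, 0.854 and 1.26, the GL3 mice 2.17, 2.18, 0.988 and 0.793, the SEAP-M mice 0.853, 0.605, 0.711 and 0.604, and mice given PPARa-M siRNA 0.463, 0.642, 0.513 and 0.533. Mouse D was thus far above all others, mouse A and GL3 mice A and B were next in order, and PPARa siRNA mice B and C lay among the vehicle mice.

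**Figure D1:**
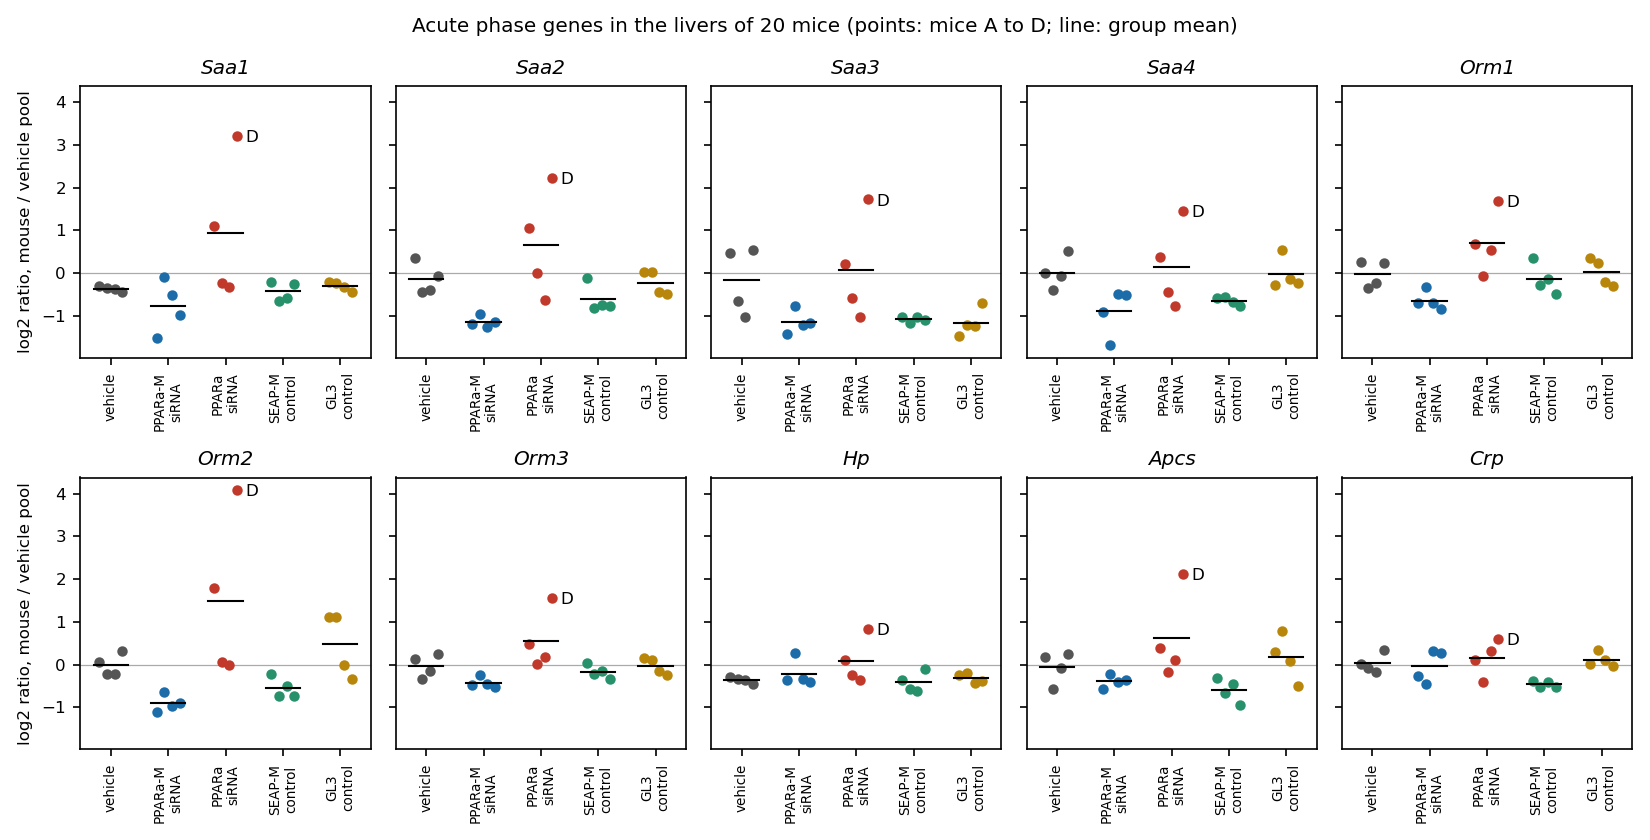
Log2 ratio of each mouse to the vehicle pool (vertical axis) for the 10 acute phase genes in the 5 groups of 4 mice; points are mice A to D from left to right, lines are group means, and D marks PPARa siRNA mouse D. Mouse D is the highest point in all 10 panels, and for Orm2 it reads 17.0 as a ratio against 3.49 for the next mouse.

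The serum amyloid genes showed the same liver. Saa1 read 2.14, 0.846, 0.795 and 9.23 in PPARa siRNA mice A to D. It lay between 0.736 and 0.813 in the vehicle mice and between 0.738 and 0.864 in the GL3 mice. Of all 20 mice, those 2 livers, A and D, were the ones with values above the pool. In vehicle mice and PPARa siRNA mouse B, Saa1 stands at or near a value that many probes share, as described with the probes. Its own level in those mice cannot be read. Saa2 read 2.08, 1.01, 0.647 and 4.69 in PPARa siRNA mice A to D, and Saa3 read 1.15, 0.667, 0.494 and 3.31. Saa4, the constitutive form, read 1.29, 0.735, 0.585 and 2.73. For Saa4 the next highest mouse was GL3 mouse B at 1.46, and for Saa3 it was vehicle mouse D at 1.46, so that mouse A did not stand apart for these genes.

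Orm1 read 1.61, 0.955, 1.45 and 3.24, and Orm3 read 1.40, 1.01, 1.13 and 2.94 in PPARa siRNA mice A to D, with mouse A again next in order for both. Hp, which binds free hemoglobin, read 1.09, 0.846, 0.785 and 1.78. As described with the probes, its value in mouse B is limited, and that in mouse C may be. Apcs read 1.31, 0.891, 1.08 and 4.38. Crp, the weakly responding pentraxin, read 1.08, 0.754, 1.25 and 1.52. Crp in mouse D thus exceeded the next mouse, vehicle mouse D at 1.27, by little.

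The share of variation that this liver took was set beside the share between groups. Of the sum of squares of the log ratios over the 20 mice, mouse D alone took 70.5% for Saa1, 62.3% for Orm3, 58.2% for Orm2, 57.1% for Hp and 56.8% for Apcs. It took 49.7% for Saa2, 46.4% for Saa3, 44.9% for Orm1, 36.7% for Saa4 and 18.8% for Crp. The 5 group means took between 31.7% (Hp) and 57.8% (Orm1), a share that mouse D itself contributes to. Without mouse D the group means took 59.5% for Saa2, 59.3% for Orm2, 58.9% for Orm3 and 57.6% for Orm1, but 37.7% for Saa1 and 19.9% for Hp. The shares for Saa1 and Hp include arrays where their value is limited as described with the probes.

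**Figure D2:**
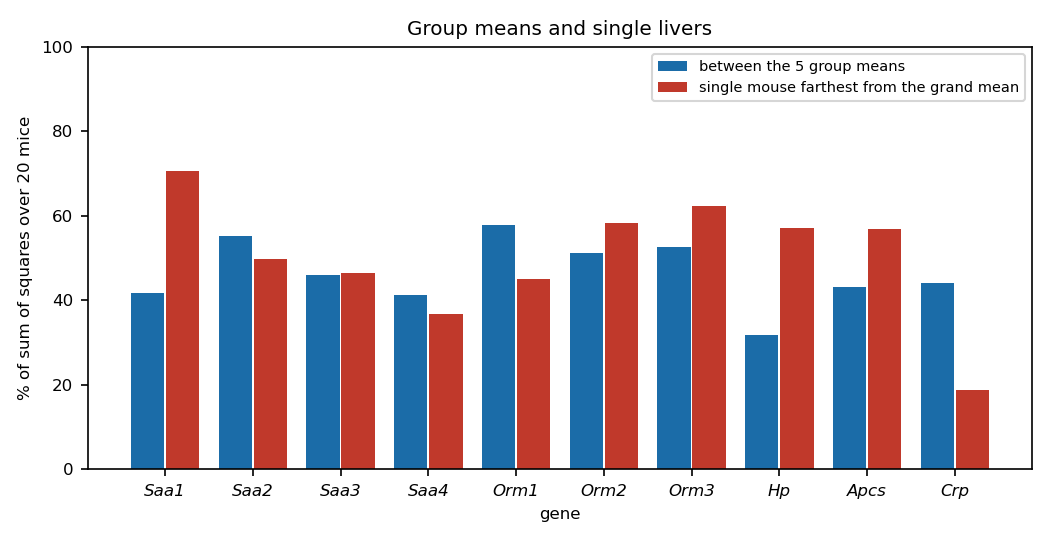
Share of the sum of squares of log ratios over 20 mice (vertical axis, %) that lies between the 5 group means (blue) and that the single mouse farthest from the grand mean takes (red), for each gene. The farthest mouse is PPARa siRNA mouse D for every gene, with 70.5% for Saa1 and 18.8% for Crp.

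In the F test over the 5 groups, 0 of the 10 members passed an adjusted p of 0.05, against 5.76% of all genes (limma, adjusted over 15252 genes). At an unadjusted p under 0.05, 9 of 10 did, against 22% of all genes. The smallest adjusted values were 0.05003 for Orm1, 0.0647 for Saa2, 0.0858 for Orm3 and 0.0916 for Orm2. The largest was 0.382 for Hp, whose values are limited as described with the probes. The count depends on which mice enter: without PPARa siRNA mouse B it was 4 (6.02% of all genes), without mouse C 2 (3.97%), and without SEAP-M mouse A 1 (5.32%).

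PPARa siRNA was compared with vehicle and with GL3, taken here as its control siRNA. The labels do not state which control belongs to which Ppara siRNA. All 10 members had positive log2 differences from vehicle, with a median of 0.63 against 0.01 over all genes, yet 0 passed (0.0787% of all genes did) and 5 had an unadjusted p under 0.05, against 5.55% of all genes. Those 5 were Orm1, Orm2, Orm3, Saa1 and Hp, and for Saa1 and Hp the vehicle values are limited as described with the probes. Orm2 differed by 1.51 (SE 0.61, adjusted p = 0.813), Saa1 by 1.30 (SE 0.52, adjusted p = 0.809), Orm1 by 0.73 (SE 0.28, adjusted p = 0.780) and Saa2 by 0.81 (SE 0.40, adjusted p = 0.929). The others were 0.67 for Apcs, 0.59 for Orm3, 0.45 for Hp, 0.25 for Saa3, 0.14 for Saa4 and 0.13 for Crp. These means rest on mouse D. Without it the median fell to 0.23, 0 members had an unadjusted p under 0.05 (4.86% of all genes did), Orm2 was 0.64, Saa1 0.54 and Saa2 0.29, and Saa3, Saa4 and Crp turned to -0.30, -0.29 and -0.02.

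Relative to GL3, 10 of 10 members were again positive, with a median of 0.64, and 0 passed (0.0525% of all genes did), with 5 at an unadjusted p under 0.05, against 4.95% of all genes. This comparison shares its PPARa siRNA mice with the one against vehicle. Saa3 differed by 1.24 (SE 0.44, adjusted p = 0.818), Saa1 by 1.23, Orm2 by 1.02, Saa2 by 0.89, Orm1 by 0.69 and Orm3 by 0.59. Apcs was 0.45, Hp 0.41, Saa4 0.18 and Crp 0.05. As described with the probes, Hp and Saa1 are limited in PPARa siRNA mouse B, and may be in PPARa siRNA mouse C and GL3 mouse A. Without mouse D, 0 members had an unadjusted p under 0.05 (6.23% of all genes did). Saa3 was then 0.69, Saa1 0.48, Saa2 0.37, Orm1 0.36, Orm3 0.26, Hp 0.16 and Orm2 0.15, whereas Saa4, Crp and Apcs became -0.26, -0.10 and -0.06.

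**Figure D3:**
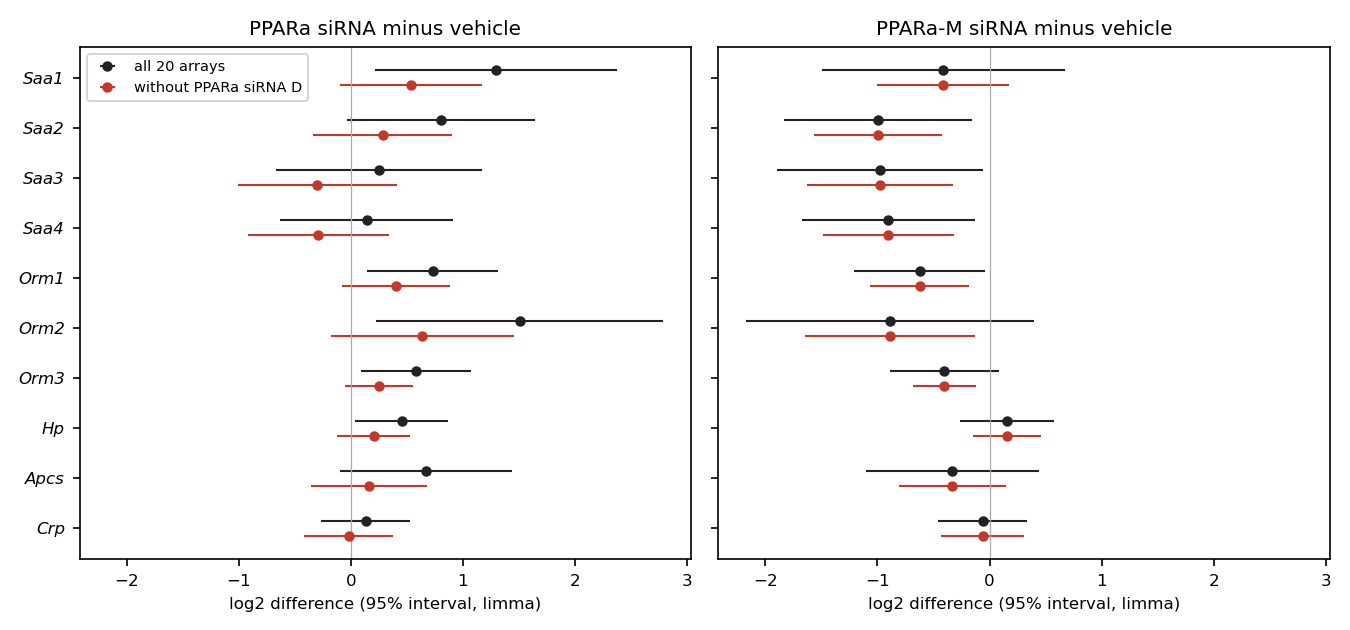
Log2 difference from vehicle (horizontal axis) with its 95% interval from limma for each gene, for PPARa siRNA (left) and PPARa-M siRNA (right), with all 20 arrays (black) and without PPARa siRNA mouse D (red). On the left Orm2 moves from 1.51 to 0.64 when mouse D is left out; on the right the estimates stay and the intervals narrow.

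PPARa-M siRNA mice read below the pool for most members. Saa2 read 0.441, 0.517, 0.420 and 0.450 in mice A to D, and the vehicle mice read 1.27, 0.731, 0.759 and 0.961. All 4 treated mice were below all vehicle mice, as they were for Saa4 and Orm2. For these 3 of 10 members the groups did not overlap with PPARa-M siRNA lower, against 7.73% of all genes. Saa4 read 0.536, 0.309, 0.719 and 0.702 with PPARa-M siRNA, and 0.996, 0.757, 0.951 and 1.42 in vehicle mice. Relative to the PPARa siRNA mice, Saa2, Orm1, Orm2, Orm3 and Apcs (5 of 10 members) were lower in every PPARa-M siRNA mouse, against 7.78% of all genes.

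Against vehicle, 9 of 10 members were negative with a median log2 difference of -0.52, against -0.02 over all genes. With limma 0 passed (7.28% of all genes did), and 4 had an unadjusted p under 0.05, against 23.3% of all genes. These were Saa2 at -0.99 (SE 0.40, adjusted p = 0.142), Saa3 at -0.98 (SE 0.44, adjusted p = 0.185), Saa4 at -0.90 (SE 0.37, adjusted p = 0.147) and Orm1 at -0.62 (SE 0.28, adjusted p = 0.184). Orm2 was -0.89, Saa1 -0.41, Orm3 -0.40, Apcs -0.33, Crp -0.06 and Hp 0.15. Hp stands at a shared value in all mice of both groups, and Saa1 at or near one in vehicle mice. As described with the probes, their differences here are not those of the genes themselves. Saa2 is limited in part in vehicle mouse D. In the fit of single probes its 3 probes differed from vehicle by -1.47, -0.94 and -0.57. The exact two-sided permutation test over 4 against 4 mice gave p = 0.0286 for Saa2, Saa4 and Orm2, the smallest that this design allows, and 0.0571 for Saa3, Orm1 and Orm3. Of 80 permutation tests (10 members in 8 comparisons, 1 of which pooled the siRNA groups), 9 had p under 0.05. The smallest p adjusted over the 80 was 0.241. A 4 against 4 test cannot go below 0.0286. Its adjusted value could reach 0.05 only if most of the 80 tests had small p-values, so this adjustment decides little. The spread that mouse D adds enters this comparison through the shared variance: without it Saa2 kept its difference of -0.99 and had an adjusted p of 0.0348, so that 1 of 10 members passed, beside 8.06% of all genes. With vehicle and PPARa-M siRNA mice alone 2 passed, Saa2 (adjusted p = 0.0467) and Orm2 (adjusted p = 0.0462), beside 0.761% of all genes.

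PPARa-M siRNA mice were also compared with those given SEAP-M, taken here as its control siRNA. Of the 10 members 7 were negative, the median was -0.25, 0 passed (2.54% of all genes did), and 1 had an unadjusted p under 0.05, below the share of 18.8% over all genes. That gene was Crp, which read 0.827, 0.735, 1.24 and 1.21 with PPARa-M siRNA and 0.766, 0.692, 0.752 and 0.691 with SEAP-M, a difference of 0.43 (SE 0.19, adjusted p = 0.227). The PPARa-M siRNA mice fell into a lower and a higher pair for Crp. Saa2 read 0.919, 0.571, 0.601 and 0.585 in the SEAP-M mice, above all PPARa-M siRNA mice, with a difference of -0.52 (SE 0.40, adjusted p = 0.510, exact permutation p = 0.0286). Orm1 was -0.50, Orm2 -0.36, Saa1 -0.35, Orm3 -0.26, Saa4 -0.25 and Saa3 -0.06, while Apcs was 0.21 and Hp 0.20. The PPARa-M siRNA values of Hp are limited as described with the probes.

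The control siRNAs were compared with vehicle in the same way. The vehicle values of Saa1 and Hp are limited in both comparisons, as described with the probes. With SEAP-M 10 of 10 members were negative, with a median of -0.48, and 0 passed (0.00656% of all genes did). Crp had the only unadjusted p under 0.05 (5.85% of all genes had one), at -0.49 (SE 0.19, adjusted p = 0.805), and Crp, Saa4 and Orm2 (3 of 10 members) did not overlap with vehicle, against 2.66% of all genes. With GL3 the median was 0.04 and 0 passed (0.0131% of all genes did). Saa3 was the member with an unadjusted p under 0.05 (2.77% of all genes had one), at -0.99 (SE 0.44, adjusted p = 1.00), and 0 of 10 members lay wholly below vehicle, against 1.62% of all genes.

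Saa3 was below the pool in every mouse of 3 siRNA groups. It read 1.38, 0.636, 0.489 and 1.46 in the vehicle mice, which form a high and a low pair. It lay between 0.359 and 0.612 in the GL3 mice, between 0.446 and 0.490 with SEAP-M, and between 0.371 and 0.586 with PPARa-M siRNA. The low vehicle pair overlapped with these groups.

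Between the control siRNAs, 9 of 10 members were lower with SEAP-M than with GL3, with a median of -0.27. None passed, as for all genes (0% called); 1 member had an unadjusted p under 0.05, Crp at -0.57 (SE 0.19, adjusted p = 0.278), as had 11.1% of all genes. Pooling both Ppara siRNAs against both control siRNAs gave 9 of 10 positive members, a median of 0.27 and 0 that passed (0.216% of all genes did). There 1 member had an unadjusted p under 0.05, near the share of 11.3% over all genes. It was Hp, at 0.30 (SE 0.14, adjusted p = 0.426), whose PPARa-M siRNA values are limited as described with the probes.

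The difference between the Ppara siRNAs, each taken relative to its own control siRNA, was negative for 9 of 10 members, with a median of -1.02 against -0.03 over all genes. None of the members passed (0.879% of all genes did), and 5 had an unadjusted p under 0.05, against 12.6% of all genes. Orm1 was -1.19 (SE 0.39, adjusted p = 0.193), Orm3 -0.85 (SE 0.33, adjusted p = 0.275), Saa2 -1.41 (SE 0.57, adjusted p = 0.300), Saa1 -1.59 (SE 0.73, adjusted p = 0.382) and Saa3 -1.30 (SE 0.62, adjusted p = 0.397). Orm2 was -1.38, Saa4 -0.43, Apcs -0.24, Hp -0.21 and Crp 0.38, with Hp limited as described with the probes. Without PPARa siRNA mouse D the median was -0.52 and 3 members had an unadjusted p under 0.05, against 14.5% of all genes.

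The members were correlated across mice. All 45 pairs had a positive Pearson correlation over the 20 mice, from 0.304 to 0.970 with a median of 0.760, and 42 had a permutation p under 0.05 after adjustment over the 45 pairs, but 23 did for Spearman's rho. Mouse D weighs on these values: without it the median was 0.560 and the lowest -0.191. The resampling moved mice freely across the 5 groups, so differences between groups enter the p-values. The share of pairs of other genes under 0.05 was not computed, so the counts of 42 and 23 are not read as particular to the members. After subtracting group means, with mouse D included, the median r was 0.751 and the lowest 0.129, and these were not tested. Orm2 and Saa2 had r = 0.948 and rho = 0.940 (permutation p = 1e-05 for both, the smallest that 100000 resamples give), and r = 0.825 without the 2 mice farthest from the median of Saa2. Orm2 and Orm3 had r = 0.951 and rho = 0.904 (permutation p = 1e-05 for both), and r = 0.817 without the 2 farthest mice. Hp and Crp had r = 0.304 and rho = 0.120 (permutation p = 0.199 and 0.613). Hp stands at a value shared by many probes on 9 of the 20 arrays, and Saa1 at or near one in vehicle mice. This limits the correlations of both, as described with the probes. Saa1 and Crp had r = 0.427 and rho = 0.107 (permutation p = 0.0455 and 0.653), and r = -0.02 without the 2 farthest mice, so that their relation rests on those mice.

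**Figure D4:**
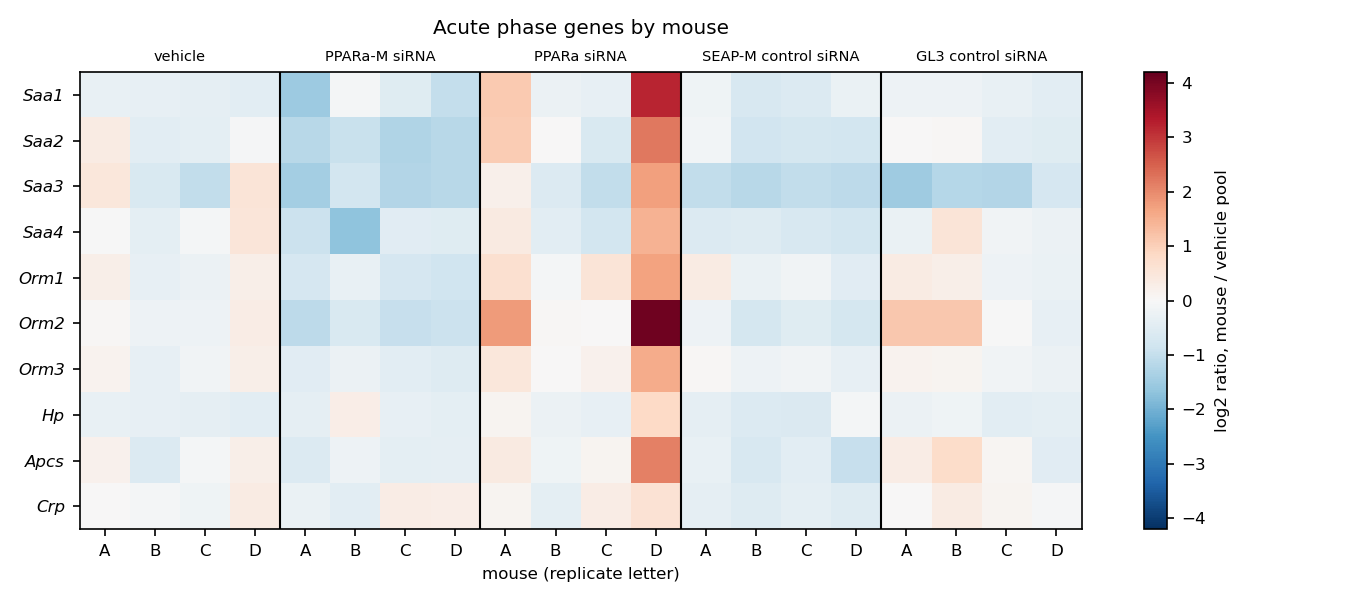
Log2 ratio of mouse to vehicle pool (colour, red above and blue below the pool) for each gene (rows) in each mouse (columns, 5 groups of mice A to D). PPARa siRNA mouse D is red in every row, and the PPARa-M siRNA mice are blue throughout for Saa1, Saa2, Saa3, Saa4, Orm1, Orm2, Orm3 and Apcs.

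Among all genes on the array, those most like Orm2 across the 20 mice were Orm3, Saa2, Apcs, Il13ra1, Kng1, Ngp, Saa1 and Orm1, with r from 0.951 to 0.910. Those most opposed were Anp32a, Gpr12, Slc50a1 and Txnl4a, with r from -0.848 to -0.800. For Saa1 the most alike were 4931428F04Rik, Orm2, Orm3, Ngp, Saa2, Efcab1, Cd177 and Prg2, with r from 0.921 to 0.883, and the most opposed Gpr12, Anp32a, Cryba4 and 2210039B01Rik, with r from -0.866 to -0.782. These are descriptions over 20 mice that share the pool and mouse D. Without mouse D, Orm2 kept r = 0.890 with Saa2 and 0.877 with Kng1, a kininogen, whereas the r of Saa1 with Cd177, a neutrophil surface protein, was 0.409. After subtracting group means the genes most like Orm2 were Orm3, Slc3a1, Saa2, Itih3, Efcab1, Kng1, Apcs and Saa1.

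Probes of the same gene did not always agree. The largest gap was for Saa2 in PPARa siRNA mouse D, where its 3 probes read 14.4, 2.32 and 3.08. The Saa1 probes read 1.17 and 3.89 in PPARa siRNA mouse A, a 3.32-fold gap, against 9.82 and 8.67 in mouse D. The 4 Apcs probes read 2.08, 6.12, 4.72 and 6.12 in mouse D. All probes of these genes placed mouse D above the pool, but the size of that ratio differs by probe.

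A further limit touches Hp and Saa1, and Saa2 in part. On 9 arrays (all vehicle and PPARa-M siRNA mice, and PPARa siRNA mouse B) a single log10 ratio is shared by between 31 and 137 probes. Hp stands at it on all 9 of these arrays. Of the Saa1 probes, 1 stands at it on 5 arrays, the 4 vehicle arrays and PPARa siRNA mouse B, and the other on 2. The Saa1 readings that remain in vehicle mice lie within 0.0012 of it on the log10 scale. A Saa2 probe stands at it on 2 arrays, vehicle mouse D and PPARa siRNA mouse B. In vehicle mouse D another Saa2 probe lies near it, at -0.1327 against -0.1333 on the log10 scale. The remaining Saa2 probe has a ratio of 1.64 in that mouse. A shared value does not carry the gene's own ratio. Hp thus has no reading of its own in vehicle or PPARa-M siRNA mice, Saa1 has none that can be told apart from the shared value in vehicle mice, and their differences that involve these groups are taken against it. Leaving such values out, Hp with PPARa siRNA differed from GL3 by 0.52 (adjusted p = 0.982). On the other arrays no value was held by at least 5 times as many probes as its neighbours, the rule used. Yet Hp and 1 Saa1 probe had the same log10 ratio in PPARa siRNA mouse C (-0.1049) and in GL3 mouse A (-0.0722). The values of both genes may be limited in those mice too, and the difference of 0.52 includes them. The cause of the shared value was not tested.

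Other positive acute phase proteins were also examined by mouse. Of 25 on the array, 12 had their highest value in PPARa siRNA mouse D, against 9.64% of all genes. Lcn2 (lipocalin 2, an iron-siderophore binding protein) read 2.46, 0.936, 0.716 and 9.83 in PPARa siRNA mice A to D, the order that Orm2 had. Against vehicle 22 of 25 were positive with PPARa siRNA, 0 passed (0.0787% of all genes did), and the median was 0.27. Serpina10 was the 1 of 25 that passed the F test (adjusted p = 0.0444), which 5.76% of all genes passed. It read 1.85 in mouse D. Hpx (hemopexin) read 1.26, 1.21, 0.896 and 1.14 in these mice and did not stand out in mouse D. Among 19 negative acute phase genes, 0 passed against vehicle with PPARa siRNA, with a median of 0.00. At an unadjusted p under 0.05, 4 were lower and 1 was higher, against 5.55% of all genes in either direction. The lowest difference was -0.93. Cyp2c29 was the 1 of 19 that passed the F test (adjusted p = 0.0246), which 5.76% of all genes passed.

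Transcripts of the cytokines that drive the response were examined next. Of 9 measured, 0 passed with PPARa siRNA relative to vehicle (0.0787% of all genes did). Il6 read 1.18, 1.06, 0.958 and 1.66 in PPARa siRNA mice A to D. With PPARa-M siRNA relative to vehicle 1 of the 9 passed, as did 1 of 14 receptors and kinases and 1 of 11 other pentraxins and receptors. The share of all genes was 7.28% there, and nothing is read from these counts. The genes were Il18 at -0.40 (adjusted p = 0.0363), the kinase Tyk2 at -0.37 (adjusted p = 0.0363) and Nptxr at -0.47 (adjusted p = 0.0492).

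Of 18 transcription factors and feedback inhibitors, 3 passed the F test (Junb, Socs1 and Cebpa), which 5.76% of all genes passed. Junb, a component of AP-1, read 2.12, 2.33, 2.34 and 1.76 in PPARa siRNA mice A to D, all above the highest of the other 16 mice, and differed from vehicle by 1.10 (SE 0.13, adjusted p = 0.00150) and from GL3 by 1.03 (adjusted p = 0.00350). Its lowest PPARa siRNA value was in mouse D, where the members were highest. Socs3, an inhibitor of interleukin 6 signaling, read 1.23, 2.44, 2.10 and 4.57 in these mice (log2 difference 1.44, adjusted p = 0.544). Socs1 was higher with PPARa-M siRNA, by 0.91 relative to vehicle (adjusted p = 0.00971) and 0.79 relative to SEAP-M (adjusted p = 0.0292).

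Markers of neutrophils were also high in mouse D. Of 11 markers, 9 had their highest value in it, as had 9.64% of all genes. The median ratio of the 11 markers was 4.53 there, against 0.850 to 1.38 in the other mice. S100a8 read 2.27, 1.71, 0.690 and 23.7 in PPARa siRNA mice A to D, and Ngp 2.81, 2.31, 1.11 and 21.2. GL3 mouse B, at 1.38, came next. Macrophage and Kupffer cell markers (10) had a median of 1.08 in mouse D, T and NK cell markers (10) 0.946, B cell markers (4) 0.958 and hepatocyte genes (9) 0.894. With PPARa siRNA relative to vehicle 11 of 11 neutrophil markers were positive and 0 passed (0.0787% of all genes did). The part of neutrophils in the members' values was not tested.

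**Figure D5:**
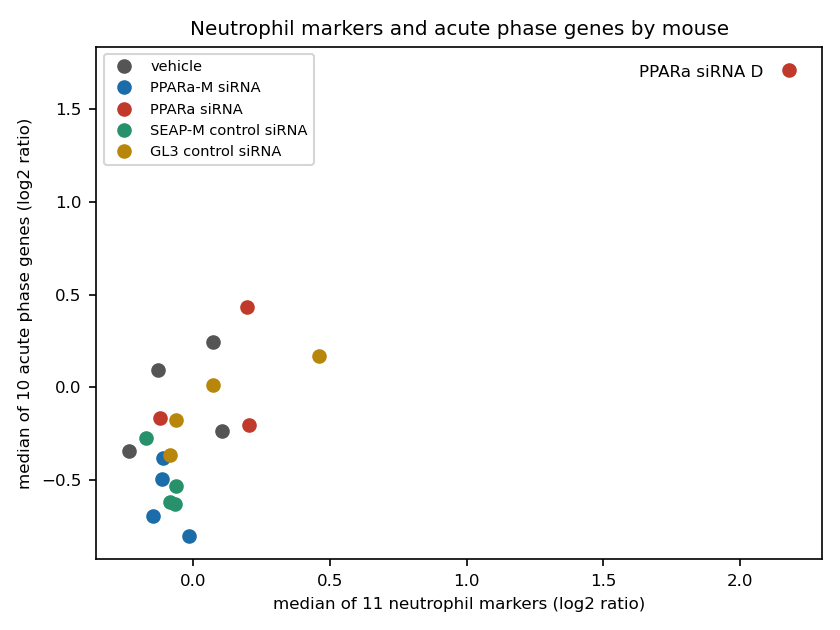
Median log2 ratio of 10 acute phase genes (vertical axis) against that of 11 neutrophil markers (horizontal axis), 1 point for each of 20 mice, coloured by group. PPARa siRNA mouse D lies alone at the upper right, with a median ratio of 4.53 for the markers and 3.27 for the acute phase genes.

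Interferon-stimulated genes were highest in other mice than the members were. With PPARa-M siRNA 6 of 18 passed as higher relative to vehicle, as did 513 of all 15252 genes, and 3 relative to SEAP-M, as did 158 of all genes. Their median ratios in mice A to D were 1.15, 0.962, 2.70 and 3.01. Eif2ak2, which encodes the double-stranded RNA sensor PKR, was 0.59 above vehicle (adjusted p = 0.00442). The members were low in mouse A and in mouse D alike, with median ratios of 0.574 and 0.619.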

How the data were processed

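Amplified RNA of each liver and of a vehicle pool (4 mice) was labelled with different dyes and put on a custom array, for which the authors deposited a log10 ratio for each of 23493 probes. Normalization is not given in the sources used here, and signal intensities were not used here; the number of mice limits the precision. Array medians lay between -0.0093 and 0.006. Of the probes, 18790 carry 1 symbol, 65 several and 4638 none.

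Ratios were converted to log2, averaged over the probes of a gene, and fitted with limma 3.58.1 (R 4.3.3) with 1 mean per group over all 20 arrays. P-values were adjusted by Benjamini-Hochberg over 15252 genes for each comparison separately, and the threshold was 0.05. The fit was tested on simulated data. Single members were compared with two-sided exact permutation tests over mice, in Python 3.11.15 with numpy 2.4.6, and correlations with 100000 resamples. Replicates are separate mice.

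The members, gene lists and tests were chosen with earlier results of these data known. All 10 members, Ppara, up to 4 genes of each other list with the smallest F test p, and the 8 most and 4 least correlated genes were eligible to be named. In comparisons of a Ppara siRNA with vehicle or its control, and in their difference, all 10 members are given. Elsewhere those with an unadjusted p under 0.05 are, whatever the alternatives showed. Alternatives were other scalings of the arrays, array weights, robust moderation, single probes, the compared groups alone, a replicate block, a 1.5-fold filter, a threshold of 0.01, group medians and each array left out. Leaving out PPARa siRNA mice A and D together, and leaving out shared values, were chosen after seeing the data.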

Additional observations from a re-analysis of the deposited data

Results flagged for a closer look

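Within groups of 4 mice, 3 of 50 combinations of member and group held a mouse whose gap to its nearest neighbour was, as a part of the group's range, above Dixon's critical value; chance flags about 1 in 20 groups. Saa2 read 0.919 in SEAP-M mouse A. Saa4 read 1.46 in GL3 mouse B. Hp read 1.20 in PPARa-M siRNA mouse B, a value shared by 75 probes of that array. PPARa siRNA mouse D was not among the 3; for 9 of the 10 members mouse A lay between it and mice B and C.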

How the results depend on the processing

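In 9 comparisons and the F test the count of members that passed was 0. It became 1 in the F test with array quality weights or single probes, 2 with the 1.5-fold filter, and from 0 to 4 with an array left out. That filter kept 4119 genes that reached 1.5-fold in at least 1 array. Every member reaches it in PPARa siRNA mouse D, at 1.52 or more. For PPARa-M siRNA against SEAP-M it became 1 with array weights (Crp, 0.61). For PPARa-M siRNA against vehicle it became 2 with the compared groups alone and from 0 to 1 with an array left out. Without PPARa siRNA mice A and D, left out after seeing the data, it was 2 in the F test and 3 for PPARa-M siRNA against vehicle. No share of all genes is available for array weights, single probes, the filter or this setting, so nothing is read from those counts. A fit with the replicate letter as a replicate block gave 0 in each comparison; same-letter deviations correlated at 0.02 on average, with 13 of 40 pairs over 0.1, so the letters do not pair the mice.

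Of 2783 recomputed log2 differences of members, 74 changed sign, none past the threshold in either fit. For PPARa-M siRNA minus SEAP-M, Saa3 became 0.30 with quantile normalization and 0.27 with arrays scaled to the same interquartile range, where Saa4 became 0.075. With array weights, Crp became 0.10 for PPARa-M siRNA minus vehicle, Saa3 -0.17 and Saa4 -0.18 for PPARa siRNA minus vehicle, and Saa4 -0.13 relative to GL3. The difference between the Ppara siRNAs became 0.11 for Saa4 with array weights and 0.045 for Apcs with quantile normalization.

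Without PPARa siRNA mice A and D, PPARa siRNA minus GL3 became -0.086 for Saa2, -0.58 for Saa4, -0.44 for Orm2, -0.20 for Apcs and -0.15 for Crp. Relative to vehicle it became -0.17 for Saa2, -0.63 for Saa3, -0.62 for Saa4 and -0.068 for Crp. The difference between the Ppara siRNAs became 0.33 for Saa4, 0.078 for Orm2, 0.18 for Hp and 0.41 for Apcs.

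With single arrays left out, PPARa siRNA minus vehicle ran from -0.30 to 0.62 for Saa3, from -0.29 to 0.45 for Saa4 and from -0.016 to 0.32 for Crp. Relative to GL3 it ran from -0.26 to 0.48 for Saa4, from -0.057 to 0.71 for Apcs and from -0.10 to 0.24 for Crp. PPARa-M siRNA minus vehicle ran from -0.18 to 0.075 for Crp and from -0.0063 to 0.22 for Hp, which has no reading of its own in either group. PPARa-M siRNA minus SEAP-M ran from -0.19 to 0.033 for Saa3 and from -0.39 to 0.014 for Saa4. The difference between the Ppara siRNAs ran from -0.50 to 0.27 for Apcs, from -0.37 to 0.041 for Hp and from -0.74 to 0.0059 for Saa4. The cause of these changes was not tested beyond the arrays left out.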
